A study of Mus musculus with 48 samples.

Results

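In cortical tissue of Chd8 V986*/+ mice and their WT controls, the Wnt and beta-catenin pathway was followed through 54 genes, all of which had a row in the deposited table of 24444 genes. The genes were listed by symbol, and they comprised 10 Wnt ligands, 14 receptors, 9 secreted inhibitors, 3 membrane or cytoplasmic inhibitors, 3 Dishevelled genes, 6 genes of the destruction complex, and 9 genes for beta-catenin and its nuclear partners. The rule used gene symbols and no measured value.

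RNA-seq was performed on the dissected cortex of 48 male C57BL/6J mice, with 6 WT and 6 Chd8 V986*/+ (HET) mice at each of 4 ages, namely E14.5, 1 month, 6 months and 12 months. HET mice carried a stop codon in 1 copy of Chd8 in every cell from conception, WT mice carried none, and no group received a treatment. One hemisphere was taken per mouse, so each sample is a separate animal that was studied at a single age. Values are variance-stabilized (VST) expression values on a log2 scale, in which a gene without reads lies near 2.14, and a difference of 1 is close to a doubling for genes well above that floor. The questions were how the pathway changes from the embryonic to the aging cortex and whether the loss of 1 copy of Chd8 changes it at any age.

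Wnt ligands are secreted proteins that bind Frizzled receptors and the coreceptors Lrp5 and Lrp6. Without a ligand, a destruction complex of Axin, Apc and Gsk3 proteins marks beta-catenin for degradation, and with a ligand, Dishevelled proteins disable this complex, so that beta-catenin enters the nucleus and activates genes together with TCF/LEF factors. In the embryonic cortex, the pathway is known for its part in patterning the dorsal midline and in the proliferation of neural progenitors, and the CHD8 protein is a chromatin remodeler that was described as a binding partner of beta-catenin.

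Chd8 itself was lower in all 6 HET mice than in every WT mouse at each age. In order of age, the difference on the log2 scale was -0.63 ± 0.08 (SE), -0.67 ± 0.05, -0.64 ± 0.04 and -0.54 ± 0.06, with limma adjusted p-values of 0.0261, 3.01e-06, 1.07e-07 and 0.00261. The cortex markers Emx1 and Emx2 had group means of 8.31 to 9.63 and of 8.54 to 10.10, far from the floor. Some libraries stood apart in genes whose longest transcript has at least 8000 bases (582 genes, among them the members Apc, Apc2, Gsk3b and Lrp6). Their median deviation from the WT mean was -0.33 in WT replicate 6 at 12 months, against -0.02 to 0.20 in the other 5 WT mice of that age, and it was -0.28 in WT replicate 1 and -0.46 in HET replicate 1 at E14.5. At E14.5, the mean of 22 midbrain, hindbrain and spinal cord markers ran from 3.36 to 6.90 in WT and from 3.43 to 4.68 in HET mice, with the highest value in WT replicate 5, and 1 of the 22 genes was higher in HET mice.

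Between E14.5 and 1 month, most of the pathway fell. In WT mice, 13 of the 54 genes rose and 38 fell (limma, Benjamini-Hochberg adjusted p below 0.1, 24 WT samples), beside 84% of all genes tested (42.8% higher, 41.2% lower). The median change was -1.03 over the 54 genes and 0.03 over all 18006 genes tested. In HET mice, which were fitted separately and share no sample with the WT fit, 14 rose and 39 fell, beside 84.8% of all genes tested (43.2% higher, 41.6% lower). All 51 members called in WT were called in the same direction in HET mice (96.2% of the 53 called there). Over all genes, the same held for 94.4% of those called in WT and 93.7% of those called in HET mice. In tissue RNA, fewer cells of a type and less RNA per cell cannot be told apart. The mean of 12 diencephalon markers was 8.60 in WT at E14.5 and 3.96 at 1 month. The part that tissue from outside the cortex had in these changes was not tested.

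**Figure D1:**
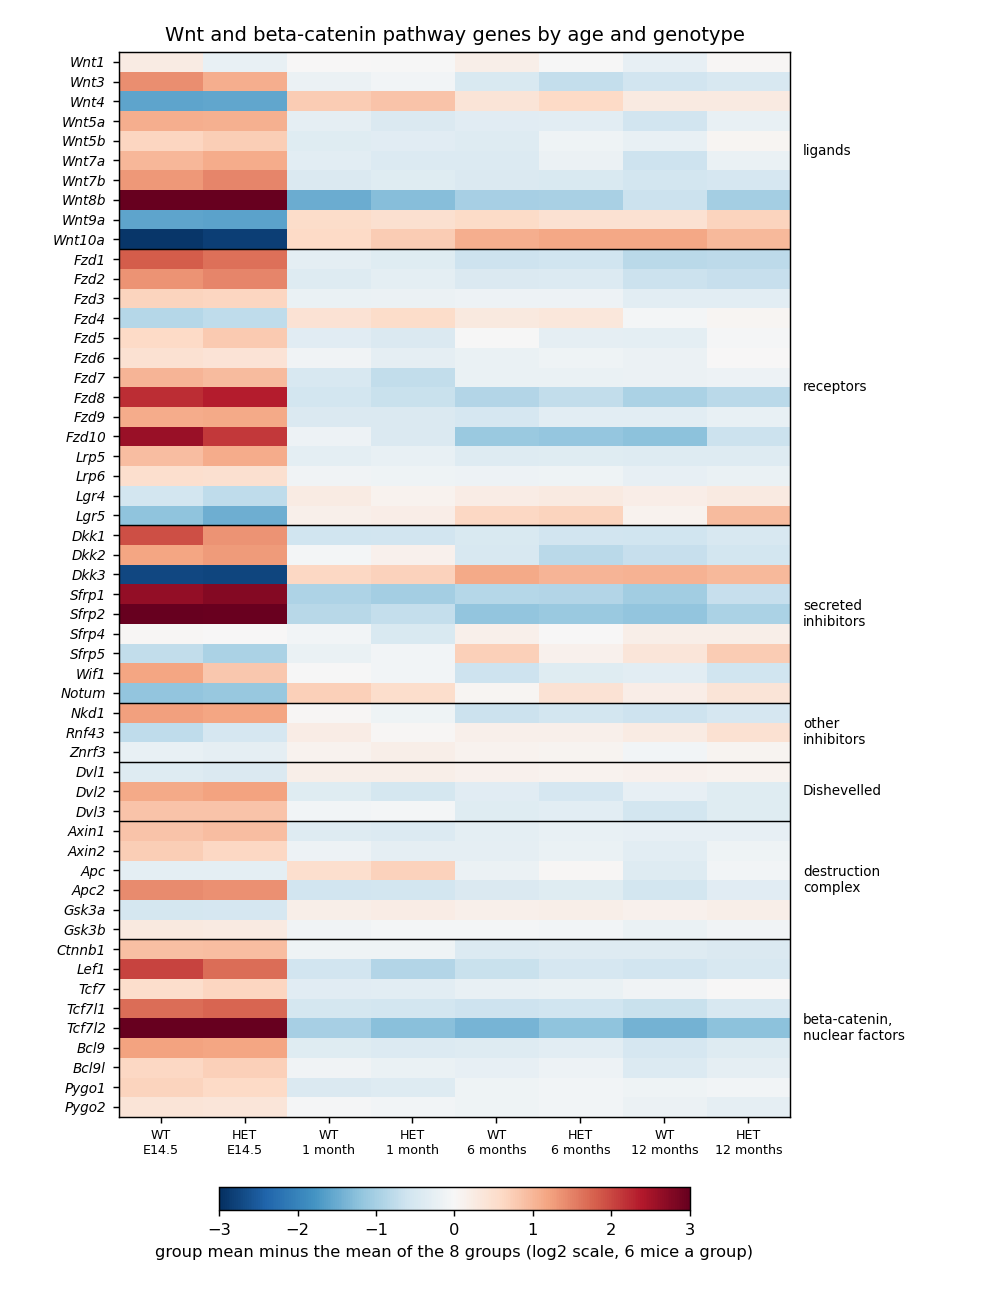
Mean VST value of each of the 54 genes (rows, grouped by role) in the 8 groups of 6 mice (columns), drawn as the difference on the log2 scale from the mean of that gene's 8 group means, with differences beyond 3 drawn in the end colours. The E14.5 columns are red for most genes and blue for few, such as Wnt10a and Dkk3, and WT and HET columns of 1 age resemble each other more than columns of E14.5 and 1 month do.

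The nuclear end of the pathway fell as a whole, with 9 of 9 genes lower at 1 month in WT and 9 of 9 in HET mice. Tcf7l2, a TCF factor located at chr19:55816300-56008144 (mm9, plus strand), ran from 12.31 through a median of 12.88 to 13.26 in WT at E14.5, and from 7.67 through 7.98 to 8.31 at 1 month. No WT mouse of 1 month came near an embryonic value, and the change of -4.84 ± 0.14 (SE) was the largest fall of any member. Lef1 (chr3:130813389-130927274, plus strand), which is both a nuclear partner and a target of beta-catenin, had WT values of 9.16, 10.20 and 10.64 (lowest, median, highest) at E14.5 and of 7.18, 7.41 and 7.90 at 1 month. Its change was -2.60 ± 0.17, and that of Tcf7l1, which mostly acts as a repressor, was -2.21 ± 0.15.

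Ctnnb1, the gene of beta-catenin (chr9:120838334-120869625, plus strand), fell by 1.05 ± 0.05 on the log2 scale, from a WT range of 14.88 to 15.12 to a range of 13.88 to 13.93. The groups did not overlap, and the spread between the 6 mice of 1 month was small, with an SD of 0.018. Bcl9 and Pygo1, whose products link beta-catenin to transcription, fell by 1.58 and 1.09. Tcf7 (-0.87), a TCF factor, and Bcl9l (-0.73), a relative of Bcl9, fell as well. Pygo2 showed the smallest fall of this role, by 0.41 ± 0.06.

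**Figure D2:**
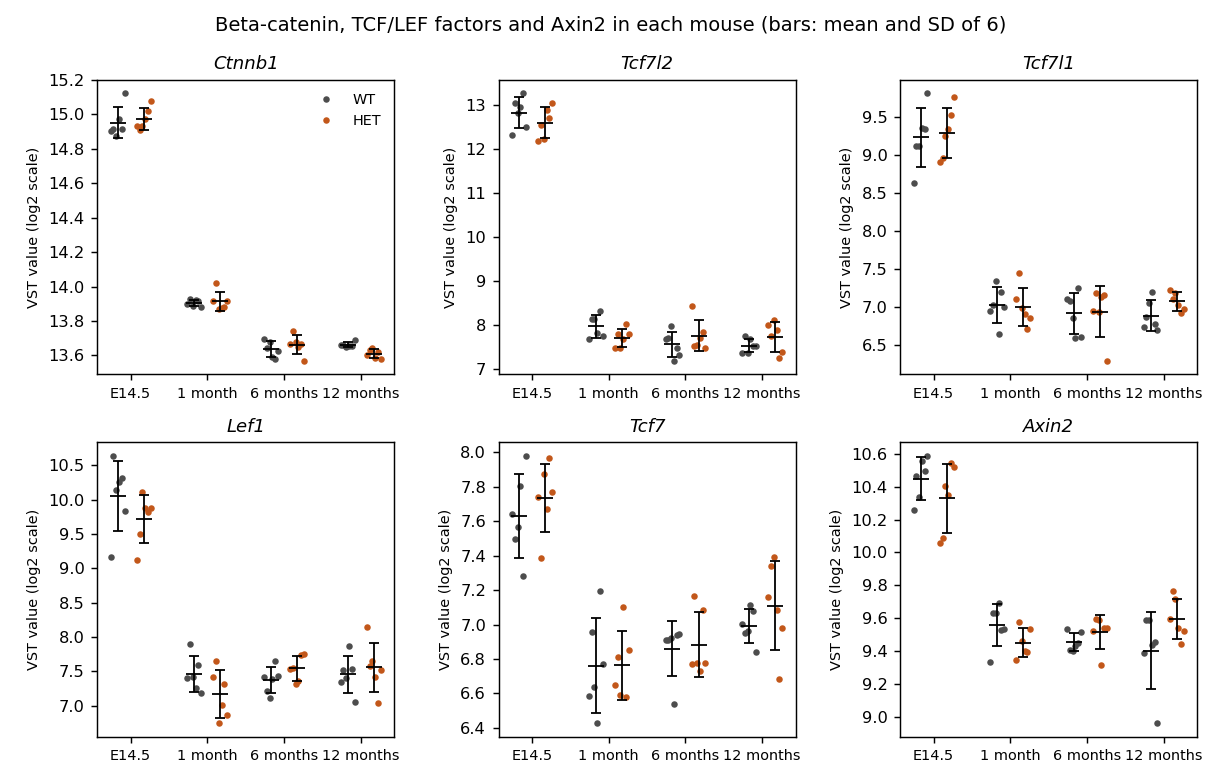
VST value (log2 scale) of Ctnnb1, the 4 TCF/LEF genes and Axin2 in each of the 48 mice, by age on the horizontal axis, with WT in grey and HET in orange. Points are mice and bars are the mean and SD of 6. Tcf7l2 lies above 12 in every embryo and below 9 in every postnatal mouse, and WT and HET points overlap at each age, except for Ctnnb1 at 12 months.

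Ligands moved in both directions. Wnt8b, a ligand of the embryonic medial cortex, fell by 4.59 ± 0.29, from WT values between 7.30 and 8.18 to values between 1.98 and 4.11, which include the floor. Wnt7b fell by 1.73 ± 0.08 and Wnt3 by 1.58 ± 0.15, while Wnt5a (-1.35), Wnt7a (-1.32) and Wnt5b (-1.01) fell less. In contrast, Wnt10a rose by 3.51 ± 0.16, from between 3.37 and 4.32 to between 6.89 and 7.66. Wnt4 rose by 2.34 ± 0.11 and Wnt9a by 2.11 ± 0.14. The remaining ligand that was not called was Wnt1, at -0.22.

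Of the 14 receptors, 11 fell and 3 rose. The largest falls were those of Fzd8 (-2.78 ± 0.10), Fzd10 (-2.75 ± 0.23) and Fzd1 (-2.10 ± 0.10), all of them Frizzled receptors. The other Frizzled receptors that fell were Fzd2 (-1.73), Fzd9 (-1.54), Fzd7 (-1.50), Fzd5 (-0.95), Fzd3 (-0.87) and Fzd6 (-0.58). Both coreceptors fell, Lrp5 by 1.21 and Lrp6 by 0.61. Fzd4, which also serves as the receptor of the ligand norrin in blood vessels, rose by 1.29 ± 0.13. The R-spondin receptors Lgr5 and Lgr4, which strengthen Wnt signals, rose by 1.35 ± 0.26 and 0.79 ± 0.09.

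Among the 9 secreted inhibitors, Sfrp2 fell by 3.85 ± 0.14 and Sfrp1 by 3.55 ± 0.12. Both encode Frizzled-related proteins that bind Wnt ligands outside the cell. Sfrp1 (chr8:24521974-24560104, plus strand) had WT values of 11.52, 11.72 and 12.36 at E14.5 and of 8.02, 8.26 and 8.42 at 1 month, so the groups were far apart. Dkk1, which blocks Lrp5 and Lrp6, fell by 2.53 ± 0.19, and its median was 2.18 at 1 month in WT, near the floor. Dkk3, a divergent Dickkopf family member that is abundant in mature neurons, rose by 3.35 ± 0.07, from between 9.38 and 9.57 to between 12.62 and 12.95. Notum, a lipase that inactivates Wnt ligands, rose by 1.89 ± 0.17. Dkk2 (-1.24) and Wif1 (-1.19) fell. In WT mice, Sfrp4 and Sfrp5 were not called, with values of -0.12 and 0.54.

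The inhibitors that act at the membrane or in the cytoplasm were divided. Nkd1, which binds Dishevelled, fell by 1.2 ± 0.08, and Rnf43 and Znrf3, which encode the ubiquitin ligases that clear Frizzled receptors from the membrane, rose by 0.99 ± 0.13 and 0.32 ± 0.11. Of the Dishevelled genes, Dvl1 rose by 0.57 ± 0.05, whereas Dvl2 fell by 1.52 ± 0.07 and Dvl3 by 0.95 ± 0.10. In the destruction complex, Apc rose by 0.78 ± 0.11 and Gsk3a by 0.72 ± 0.05, and Apc2 (-2.0 ± 0.11), Axin1 (-1.25 ± 0.05) and Axin2 (-0.89 ± 0.08) fell. Gsk3b fell by 0.40 ± 0.10, and its WT values at the 2 ages overlapped.

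Of 13 listed targets of beta-catenin, 8 of which are among the 54 genes, 4 rose and 8 fell between E14.5 and 1 month in WT. The 4 that rose were Lgr5, Notum, Rnf43 and Znrf3, which act on Wnt receptors or ligands at the cell surface. The targets that fell included Axin2, the most widely used readout of the pathway, whose WT values ran from 10.26 to 10.59 at E14.5 and from 9.33 to 9.69 at 1 month. Of 53 further pathway genes, 51 were tested, and 14 rose and 30 fell. Dkkl1, Wnt2 and Frzb rose by 4.30, 3.67 and 2.73, and Draxin (-6.74), Wnt3a (-3.45) and Ror2 (-3.0) fell. Wnt3a is a ligand of the cortical hem, and Draxin is an axon guidance protein that also inhibits Wnt signals.

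After 1 month, the pathway changed less. Between 1 and 6 months, 4 members rose and 12 fell in WT, beside 14.2% of all genes tested (6.62% higher, 7.59% lower), and 8 rose and 8 fell in HET mice, beside 21% of all genes tested (10.6% higher, 10.4% lower). The same 10 genes were called in the same direction in both genotypes, which is 62.5% of the members called in each. Over all genes, this share was 68.1% of those called in WT and 46.2% of those called in HET mice. Among the members called, Dkk3 (0.50 ± 0.07), Wnt10a (0.49 ± 0.16) and Pygo1 (0.30 ± 0.07) showed the largest rises in WT, and Fzd10 (-0.95 ± 0.23), Nkd1 (-0.67 ± 0.08) and Apc (-0.66 ± 0.11) the largest falls. Ctnnb1 fell by 0.27 in WT and by 0.25 in HET mice. Tcf7l2, Fzd1, Fzd8, Wif1, Notum and Wnt4 were called lower in WT alone, and whether these steps differed between genotypes was not tested.

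Between 6 and 12 months, no member was called in WT, where 4 of the 54 had an unadjusted limma p below 0.05, beside 7.38% of all genes tested. Of all genes, 0.0111% were called. In HET mice, the nuclear factor Pygo2 was called lower, by 0.17, beside 1.81% of all genes tested (1.21% lower). It was not called in a single fit of all 48 samples.

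The genotypes were then compared at each age. In the fit of each age by itself, none of the members passed the threshold in embryos (54 tested) or at the later ages (53 tested each, since Dkk1 lay at the floor). The share of all genes called was 0.00593%, 0.139%, 0.0927% and 0.0463% in order of age. The study used DESeq2 with a batch correction at the same threshold, and it called more genes over the 4 ages than these fits. The absence of a call here thus does not show the absence of a difference. At an unadjusted limma p below 0.05, the members numbered 2, 6, 7 and 8 at the 4 ages, beside 4.56%, 8.8%, 7.59% and 11.6% of all genes tested. Of the 53 further pathway genes, Chd8 alone was called in these fits, at each of the 4 ages. In 1 fit of all 48 samples, 2 of them were called lower at E14.5, beside 49 higher and 69 lower of all 18195 genes tested. At 12 months, 2 were called higher and 1 lower in that fit, beside 226 higher and 264 lower of all genes.

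**Figure D3:**
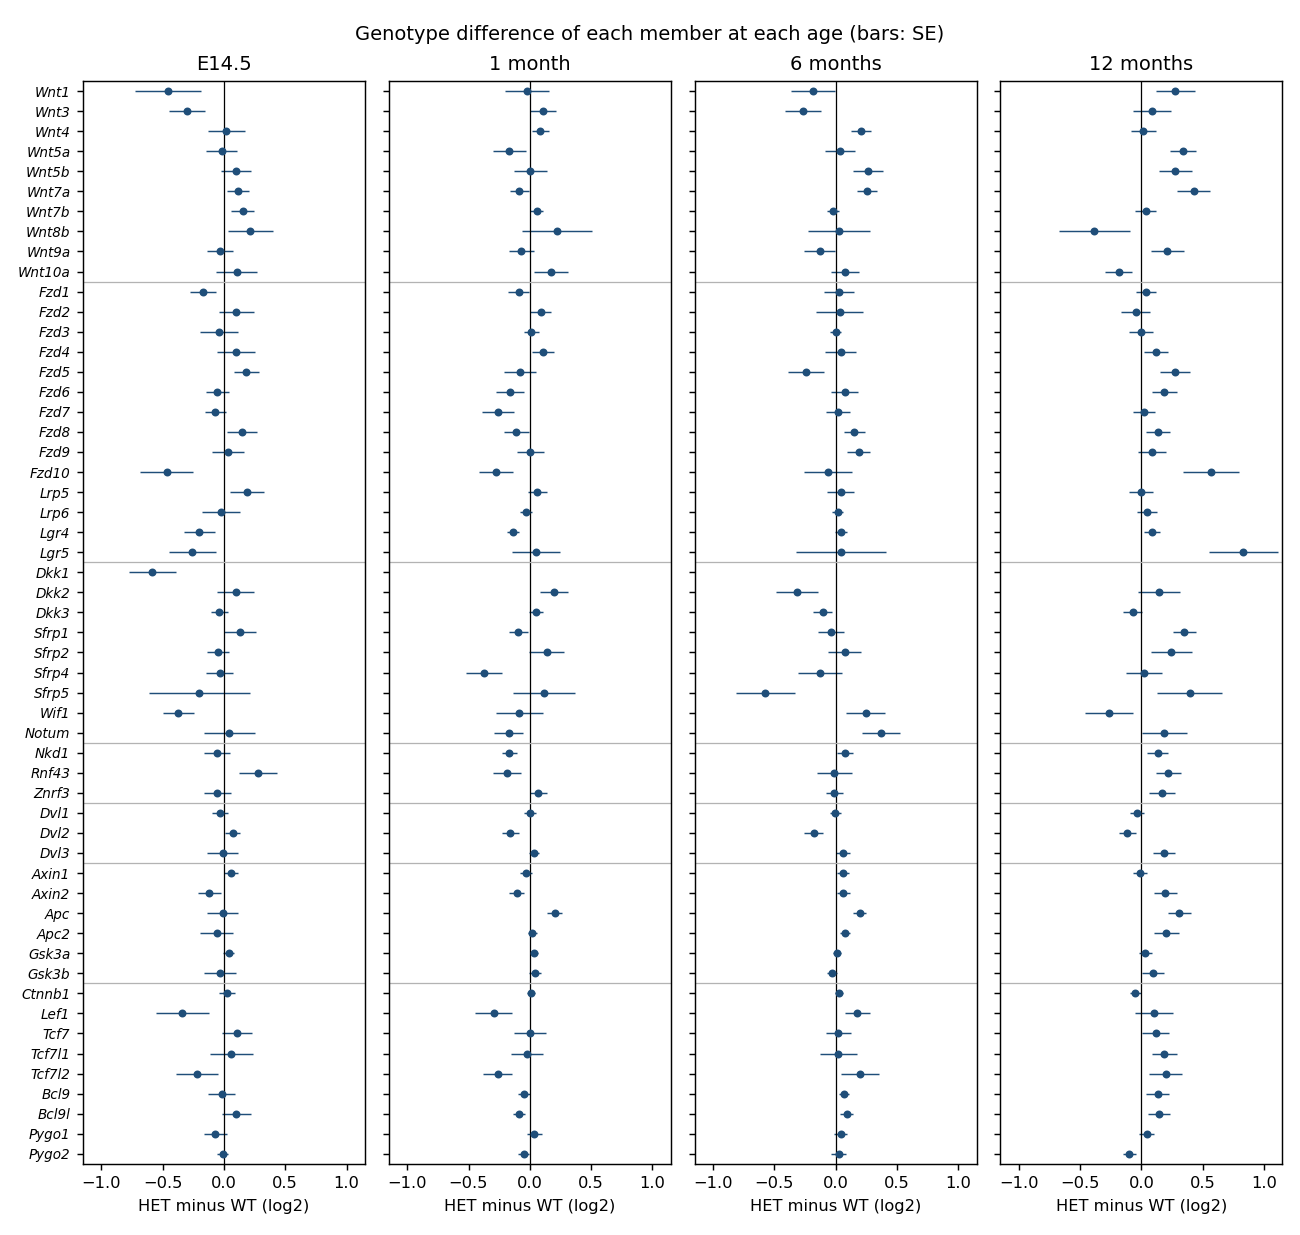
Difference of the means of 6 HET and 6 WT mice on the log2 scale, with SE bars, for each member tested (rows, divided by role) at E14.5, 1, 6 and 12 months (panels). Points lie on both sides of 0 at E14.5 and 1 month, and 37 and 41 of the 53 points lie to the right of 0 at 6 and 12 months.

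Apc had a higher mean in HET mice at each of the 3 postnatal ages. It encodes a component of the destruction complex, and its longest annotated transcript has 12346 bases. At 1 month, WT values were 14.56, 14.75 and 14.96 and HET values 14.89, 14.95 and 15.06 (lowest, median, highest). At 6 months, WT values were 14.01, 14.07 and 14.31 and HET values 14.21, 14.30 and 14.38, and at 12 months WT values were 13.39, 13.98 and 14.07 and HET values 14.09, 14.18 and 14.22. All 6 HET mice were above 5 of the 6 WT mice at 1 and at 6 months and above every WT mouse at 12 months, whereas the embryos overlapped.

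The difference of Apc was 0.20 ± 0.06 (SE), 0.20 ± 0.05 and 0.31 ± 0.10 at 1, 6 and 12 months and -0.01 ± 0.13 at E14.5. Exact two-sided permutation tests gave p = 0.0152, 0.0108 and 0.00216 at the 3 postnatal ages, the last of which is the smallest that 6 against 6 mice can give, and the limma adjusted p-values over all genes were 0.327, 0.276 and 0.27. Leaving out each of the 12 mice of 6 months in turn gave limma adjusted p-values from 0.0575 to 0.525 for Apc. The lowest, which passed the threshold, came without WT replicate 3. Its value of 14.31 was the highest of its group, so leaving it out widens the difference. At 12 months, 0.37% of all genes tested had every HET value above every WT value. The WT minimum at 12 months was replicate 6, the library with low values of long transcripts. Without it, the difference of Apc at 12 months was 0.21, and the median difference of the 582 genes with long transcripts was 0.004, against 0.075 with it.

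When the genotype difference was averaged over the 3 postnatal ages in a fit of 36 samples, a contrast that was chosen after the values had been seen, Apc was higher by 0.24 ± 0.04 (adjusted p = 0.00164) and Dvl2 lower by 0.15 ± 0.04 (adjusted p = 0.0455). These were the only members called, beside 2.68% of all genes tested. Without WT replicate 6 of 12 months, Apc was higher by 0.20 (adjusted p = 0.000318) and Dvl2 lower by 0.15 (adjusted p = 0.0573). Dvl2, which relays the signal from Frizzled, had HET medians of 8.24, 8.19 and 8.36 and WT medians of 8.34, 8.41 and 8.46 at 1, 6 and 12 months. At each of these ages, 4 of the 6 HET mice were below every WT mouse. The ligand gene Wnt7a was next, at 0.20 ± 0.06 (adjusted p = 0.108).

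At E14.5, the lowest p-values belonged to Dkk1, Wif1 and Fzd10, and all were lower in HET embryos. Dkk1 (chr19:30620353-30624155, minus strand) had WT values of 4.19, 4.88 and 5.12 and HET values of 3.87, 4.12 and 4.78, so 4 HET embryos lay below the lowest WT embryo. The difference was -0.59 ± 0.19, with an exact permutation p of 0.0238 and a limma adjusted p of 0.982. For Wif1, which encodes an inhibitor that binds Wnt ligands, WT values were 6.31, 6.53 and 6.86 and HET values 5.92, 6.22 and 6.51, a difference of -0.37 ± 0.13 (exact permutation p = 0.0195, limma adjusted p = 0.982).

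For Fzd10, WT values ran from 8.13 to 9.39 and HET values from 7.74 to 8.73. The difference of -0.47 ± 0.22 (exact permutation p = 0.0952, limma adjusted p = 0.982) was -0.07 when the mean of the midbrain, hindbrain and spinal cord markers was a covariate, and that of Lef1 went from -0.34 to -0.05. Dkk1 and Wif1 stood at -0.41 and -0.30 in the same fit. In HET embryos, 10 of these 22 markers were within 0.5 of the floor, all of them Hox genes, and in WT embryos 2 were, Hoxb8 and Hoxc8. Without WT replicate 5, which had the highest marker mean, Dkk1, Wif1 and Fzd10 differed by -0.59, -0.31 and -0.34. Without replicate 1 of both genotypes, they differed by -0.68, -0.43 and -0.54, and 6 members had an unadjusted limma p below 0.05, beside 5.75% of all genes tested. The mean of the 22 markers differed by -0.97 between the genotypes (exact permutation p = 0.115). That of 12 diencephalon markers differed by -0.38, with 3 genes higher in HET embryos (exact permutation p = 0.303). The mean of 8 cortex markers differed by 0.27, with 7 genes higher (exact permutation p = 0.0801). For 8 ganglionic eminence markers, all higher, it was 0.20 (exact permutation p = 0.0866). The part of tissue from outside the cortex in these differences was not tested.

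The promoters of the members are shown where the binding sequence of TCF/LEF factors occurs in them. RefSeq start sites (GRCm38.p6) were matched by symbol for 36 of the 54 genes, with 1 start per gene. The letters CTTTG, followed by either AA or AT, or by TA or by TT, which makes 4 words, were searched on both strands of the 250 bases before the start. A match occurred in 3 of the 36 promoters (8.3%) and in 14.8% of all 32851 promoters, which were not reduced to 1 start per gene. Capitals mark the matches in the sequences, which are written 5′ to 3′ on the strand of the gene. The intervals are chr19:30549497-30549746 (minus strand) for Dkk1, chr1:59481897-59482146 (plus strand) for Fzd7 and chr7:25237852-25238101 (minus strand) for Gsk3a.
Dkk1: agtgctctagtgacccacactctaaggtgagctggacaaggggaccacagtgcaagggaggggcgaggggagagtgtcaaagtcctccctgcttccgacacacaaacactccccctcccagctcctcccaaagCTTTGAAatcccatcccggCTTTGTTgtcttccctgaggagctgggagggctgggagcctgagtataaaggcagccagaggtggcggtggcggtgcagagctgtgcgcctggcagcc
Fzd7: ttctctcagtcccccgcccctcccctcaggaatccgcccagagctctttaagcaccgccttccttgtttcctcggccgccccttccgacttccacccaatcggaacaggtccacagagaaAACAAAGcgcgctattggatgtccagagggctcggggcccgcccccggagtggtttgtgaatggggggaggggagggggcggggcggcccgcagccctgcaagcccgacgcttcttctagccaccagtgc
Gsk3a: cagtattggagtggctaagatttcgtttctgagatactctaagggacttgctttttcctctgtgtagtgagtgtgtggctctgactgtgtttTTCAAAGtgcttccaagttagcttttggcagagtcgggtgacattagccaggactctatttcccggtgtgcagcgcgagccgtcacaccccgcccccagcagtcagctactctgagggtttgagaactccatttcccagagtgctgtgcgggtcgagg
Dkk1, the member with the lowest p at E14.5, held 2 matches, whose first bases lie 117 and 98 bases before the start. These genes did not move together, as Dkk1 and Fzd7 fell and Gsk3a rose from E14.5 to 1 month in WT. A match describes the letters of this window and shows no binding.

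At 1 month, the lowest p-values were those of Apc, Nkd1 and Lgr4. Nkd1 had WT values of 9.11, 9.28 and 9.38 and HET values of 8.92, 9.11 and 9.18, a difference of -0.17 ± 0.06 (exact permutation p = 0.0195, limma adjusted p = 0.425). The difference of Lgr4 was -0.14 ± 0.05 (exact permutation p = 0.0195, limma adjusted p = 0.431), and 4 of 6 HET mice lay below the lowest WT mouse. The mean of 11 meninges and fibroblast markers was lower in HET mice of this age by 0.55 (exact permutation p = 0.0996), with 0 of 11 genes higher. WT means were 7.14 to 8.0 and HET means 5.93 to 7.81. The mean of 8 choroid plexus markers was higher by 0.53, with 8 genes higher (exact permutation p = 0.377). That of 7 striatum markers was higher by 0.42, with 7 genes higher (exact permutation p = 0.223). With the meninges and fibroblast mean as a covariate, the differences of Nkd1, Lgr4 and Apc were -0.17, -0.08 and 0.14, and that of Lef1 was -0.06 in place of -0.29. Whether meningeal tissue accounts for these shifts was not tested.

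At 6 months, 37 of 53 members had a higher mean in HET mice, with a median difference of 0.03 beside 0.00 over all genes tested. After Apc, the lowest p-values belonged to the ligands Wnt7a and Wnt4. Wnt7a (chr6:91313975-91361357, minus strand), which is known for its role in blood vessel growth of the brain, had WT values of 8.14, 8.29 and 8.55 and HET values of 8.31, 8.64 and 8.72. In this comparison, 4 of the 6 HET mice exceeded every WT mouse, and the difference was 0.25 ± 0.08 (exact permutation p = 0.0195, limma adjusted p = 0.448). Wnt4 was higher by 0.21 ± 0.08 (exact permutation p = 0.0541, limma adjusted p = 0.574). At this age, the mean of 6 oligodendrocyte markers ran from 12.86 to 13.02 in WT and from 12.50 to 12.84 in HET mice, without overlap, and all 6 markers were lower in HET mice (difference -0.21, exact permutation p = 0.00216). The 6 astrocyte markers were all higher in HET mice (difference 0.12, exact permutation p = 0.0844), as were the 8 endothelial markers (difference 0.17, exact permutation p = 0.117). Choroid plexus markers differed by -0.54, with 0 of 8 genes higher (exact permutation p = 0.327). Meninges and fibroblast markers differed by 0.20, with 9 of 11 genes higher (exact permutation p = 0.286). The part of these cell types and tissues in the differences of Apc, Wnt7a and Wnt4 was not tested.

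At 12 months, 41 of 53 members had a higher mean in HET mice, beside 51.4% of all genes tested. The median difference was 0.12 over the members and 0.00 over all genes. All 8 members with an unadjusted limma p below 0.05 were higher in HET mice. Of all 17288 genes tested, 1069 were higher and 931 lower at this threshold. Without WT replicate 6, the count of members with a higher mean was 38 and their median 0.08. Without this mouse and HET replicates 2 and 3, which had the highest values of radial glia and progenitor markers, the count was 36 and the median 0.04, and 4 members had an unadjusted limma p below 0.05, beside 6.73% of all genes tested.

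Sfrp1 had the lowest p at 12 months, with WT values of 7.83, 8.18 and 8.37 and HET values of 8.37, 8.46 and 8.65. Of the 6 HET mice, 5 were above every WT mouse, and the difference was 0.35 ± 0.09 (exact permutation p = 0.00433, limma adjusted p = 0.228). Wnt5a, a ligand that mostly signals without beta-catenin, ran from 7.66 to 7.91 in WT and from 7.82 to 8.55 in HET mice, a difference of 0.34 ± 0.11 (exact permutation p = 0.00866, limma adjusted p = 0.27). Wnt7a ran from 7.81 to 8.52 in WT and from 8.13 to 8.91 in HET mice, a difference of 0.43 ± 0.13 (exact permutation p = 0.026, limma adjusted p = 0.27). In a single fit of all 48 samples, which shares the spread of all ages, Wnt7a (adjusted p = 0.0366) and Apc (adjusted p = 0.0945) were called at 12 months, beside 2.69% of all genes tested.

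**Figure D4:**
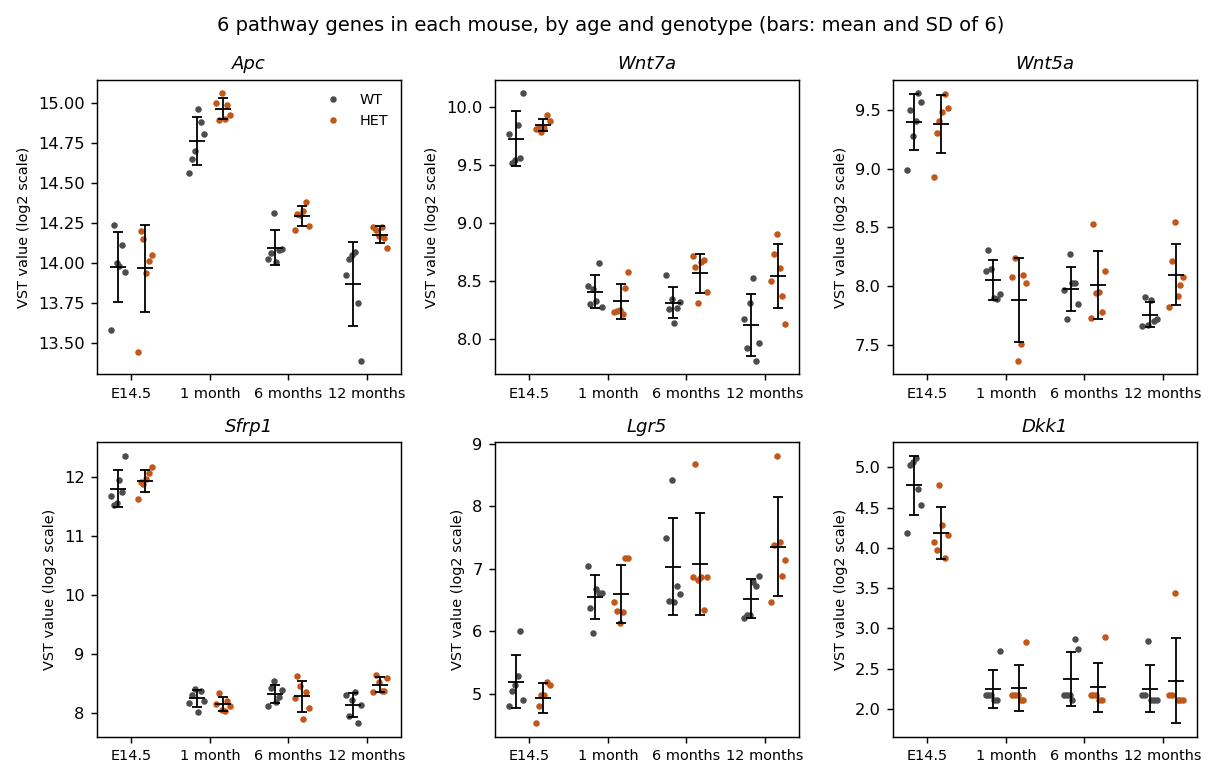
VST value (log2 scale) of Apc, Wnt7a, Wnt5a, Sfrp1, Lgr5 and Dkk1 in each of the 48 mice by age, with WT in grey and HET in orange. Points are mice and bars are the mean and SD of 6. All 6 HET points of Apc lie above the 6 WT points at 12 months, and Dkk1 lies near the floor after birth.

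The mean of 8 radial glia and progenitor markers differed between the genotypes at 12 months as well. It was 7.28 to 7.42 in WT and 7.43 to 8.28 in HET mice, a difference of 0.39 (exact permutation p = 0.00216), with 6 of 8 genes higher and none near the floor. With this mean as a covariate, the difference of Wnt5a was 0.07, that of Wnt7a 0.14, that of Sfrp1 0.25 and that of Apc 0.31. The marker mean did not overlap between the genotypes, so this fit cannot separate it from genotype. In the fits of this age, none of these genes passed the threshold with or without the covariate. Without HET replicates 2 and 3, Wnt5a, Wnt7a and Sfrp1 were higher by 0.20, 0.29 and 0.30. At this age, striatum markers differed by -0.31, with 0 of 7 genes higher (exact permutation p = 0.193). Cortical hem markers differed by 0.19, with 5 of 7 genes higher (exact permutation p = 0.0714). The part that a different share of progenitor cells or of ventricular tissue might have in the differences of these members was not tested.

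Lgr5 was singled out after its values were seen. It ran from 6.21 to 6.89 in WT and from 6.47 to 8.81 in HET mice of 12 months, a difference of 0.83 ± 0.28 (exact permutation p = 0.0173, limma adjusted p = 0.292). The highest values were 8.81 in HET replicate 3 of 12 months, 8.68 in HET replicate 2 of 6 months and 8.41 in WT replicate 3 of 6 months. These 3 mice also had the highest progenitor marker means of their groups, at 8.28, 8.17 and 8.10. At 1 month, marker means reached 8.31 while Lgr5 was at most 7.17.

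**Figure D5:**
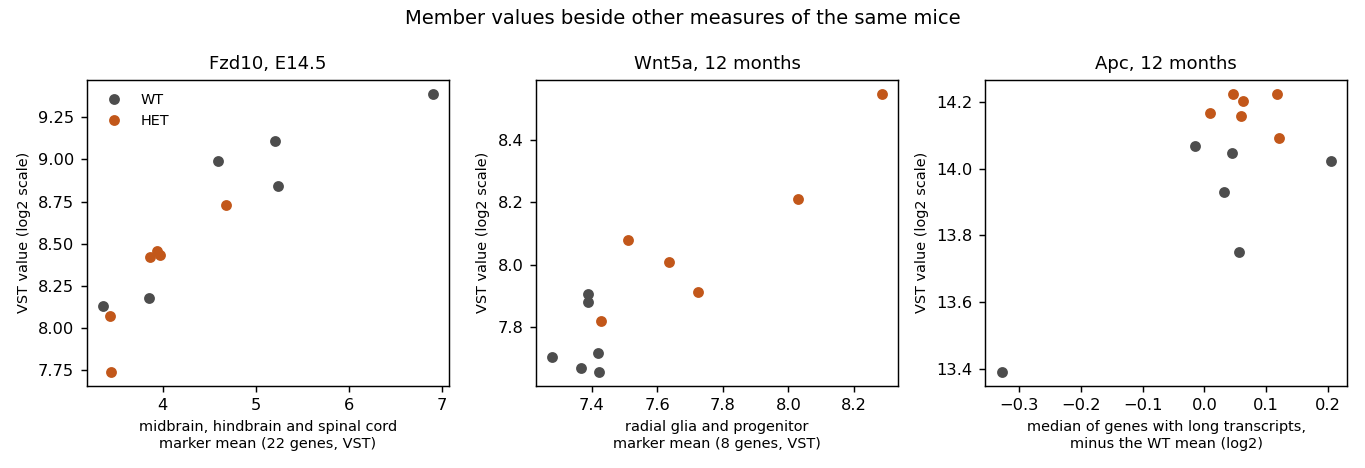
VST values (log2 scale, vertical axes) of Fzd10 at E14.5, Wnt5a at 12 months and Apc at 12 months in 6 WT (grey) and 6 HET (orange) mice each, against the mean of midbrain, hindbrain and spinal cord markers, the mean of radial glia and progenitor markers, and the median deviation of genes with long transcripts. Fzd10 and Wnt5a are highest in the mice with the highest marker means, and the lowest Apc value belongs to the WT mouse with the lowest long-transcript median of -0.33.

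Ctnnb1 was separated by genotype at 12 months, although the distance was small. WT values were 13.65, 13.66 and 13.69 and HET values 13.58, 13.61 and 13.64, so that all 6 HET mice lay below the 6 WT mice, as was the case for 0.497% of all genes tested. The difference of -0.05 ± 0.04 gave an exact permutation p of 0.00216 and a limma adjusted p of 0.659. The SDs of 0.015 in WT and 0.027 in HET mice were small, and limma moderates such SDs toward those of genes at a similar level. At E14.5, 1 and 6 months, Ctnnb1 differed by 0.02, 0.01 and 0.03. Axin2 differed by -0.12, -0.11, 0.06 and 0.19 and Lef1 by -0.34, -0.29, 0.18 and 0.10 at the 4 ages, with limma adjusted p-values of at least 0.443. Without WT replicate 6, Axin2 and Lef1 at 12 months differed by 0.10 and 0.02. Of the 13 listed targets, 4, 3, 10 and 11 had a higher mean in HET mice in order of age. Over all genes tested, these shares were 50.4%, 48.6%, 49.6% and 51.4%. The median difference of the targets was -0.06, -0.12, 0.02 and 0.17, and none was called in the fit of each age. In 1 fit of all 48 samples, 1 target was called higher at 12 months (limma adjusted p = 0.0985), beside 2.69% of all genes tested.

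The genotype difference at 12 months was also tested against that at each younger age in a fit of all 48 samples. No member was called against E14.5, 1 month or 6 months, where 0.066%, 0.0275% and 0.0605% of all genes tested were called. At an unadjusted limma p below 0.05, there were 8, 8 and 6 members, beside 11.4%, 11% and 8.64% of all genes tested. The member with the lowest p was Fzd10 against E14.5, which was lower by 0.47 in HET embryos and higher by 0.57 in HET mice of 12 months (difference 1.03 ± 0.30, limma adjusted p = 0.191). Against 1 month it was Wnt7a (difference 0.51 ± 0.15, limma adjusted p = 0.196).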

How the data were processed

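RNA-seq libraries of 48 mouse cortices were analysed from 1 deposited table of 24444 genes. The submitters' processing notes name STAR 2.5.2b, Salmon 0.11.3, DESeq 1.22.2, DESeq2 and the genome build mm9. The deposited values are variance-stabilized expression on a log2 scale, made by the authors. Over all 48 samples, the mean of replicates 1 to 3 and that of replicates 4 to 6 differed by at most 3.38e-14 in the deposited values. The difference between these sets of mice averaged over the groups had thus been removed. Within an age the sets could still differ. At E14.5, the radial glia and progenitor marker means of replicates 1 to 3 were 11.93 to 12.01 in WT and 12.06 to 12.21 in HET embryos. Those of replicates 4 to 6 were 12.19 to 12.69 and 12.30 to 12.62. The tests did not count this removal, so their p-values may be somewhat too small. The values hold no counts, and the read depths that the study lists were not used here. A gene without reads lies near 2.14, and 15.7% of all values were at this floor.

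Genes with a mean at least 0.5 above the floor were fitted with limma 3.58.1 in R 4.3.3, with a trend of variance on level, over all genes and without covariates. Genotypes were compared within each age (6 against 6 mice), ages within each genotype, and genotype differences between ages in 1 fit of 48 samples. Benjamini-Hochberg adjusted p-values below 0.1 were called. Exact two-sided permutation tests of 6 against 6 mice have a smallest p of 0.00216 and were not adjusted over genes, marker lists or ages. Each mouse was 1 sample of its group by the labels. The fits were tested on simulated data. Gene positions are from the mm9 annotation, and promoters are from RefSeq. Figures were drawn with matplotlib 3.10.9.

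The genes and lists were chosen with earlier results of these data known. Named with values were the 3 members with the lowest p at each age, members called in any fit, up to 3 members per role and direction with the largest change from E14.5 to 1 month in WT, up to 3 per direction at later steps, Ctnnb1, Axin2, Lef1 and Chd8, and up to 3 further pathway genes per direction. Others were named after their values were seen. Alternatives were other filters, thresholds and normalizations, samples left out, a replicate block and marker covariates.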

Additional observations from a re-analysis of the deposited data

Results flagged for a closer look

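In 98 groups of 6 mice, 8 had a highest or lowest mouse whose gap to its nearest neighbour exceeded Dixon's critical share of 0.625 of the range, where chance gives about 1 in 20 groups. Of these, 3 concerned WT replicate 6 of 12 months, the library with low values of long transcripts. Its Wif1 value was 4.56, with the others at 5.09 to 5.21. Its Axin2 value was 8.96, with the others at 9.39 to 9.59, and its Ctnnb1 value was 13.69, with the others at 13.65 to 13.66.

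Apc stood apart in HET replicate 1 of E14.5, at 13.45 against 13.94 to 14.20, and this library had the lowest long-transcript median of its age (-0.46). Apc was also high in WT replicate 3 of 6 months, at 14.31 against 14.01 to 14.09. Wnt4 was 8.38 in HET replicate 3 of 12 months, with the others at 8.75 to 8.96. Ctnnb1 was 14.02 in HET replicate 2 of 1 month, with the others at 13.87 to 13.92, and Axin2 was 9.31 in HET replicate 4 of 6 months, with the others at 9.52 to 9.60. The causes were not tested.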

How the results depend on the processing

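Over the alternatives, 220 counts of members called stayed within 1.5 times of the reported count, and 7 moved. In 1 fit of all 48 samples, 2 members were called at 12 months, and 0 in HET mice between 6 and 12 months. Leaving out each mouse in turn gave 0 to 1 calls at 6 months (Apc, without WT replicate 3), 0 at the other ages, and 2 to 3 for the average over the postnatal ages. There, Apc ran from 0.20 to 0.25 and Dvl2 from -0.17 to -0.14. Ctnnb1 at E14.5, at 0.02, was -0.013 with the midbrain, hindbrain and spinal cord markers and -0.014 with the radial glia and progenitor markers as a covariate. The cause of these changes was not tested. A term for replicates 1 to 3 against 4 to 6 left 0 members called between genotypes at each age.

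Replicate numbers are shared between groups in the labels, which do not say that a number marks a litter, batch or day. Same-numbered mice did not deviate together throughout. Their mean correlation was 0.23 at E14.5, where 4 of 6 pairs were over 0.1 and 4 mice correlated best with their own number, and 0.018, 0.045 and -0.034 at 1, 6 and 12 months. With a replicate block in the fit of all 48 samples, 1 member was called at E14.5 (Dkk1, adjusted p = 0.0612) and 5 at 12 months, among them Wnt7a, Apc, Sfrp1 and Axin2 (adjusted p = 0.0129, 0.0133, 0.031 and 0.0878). With the block, 1 member was also called in the difference between 12 months and E14.5 and 1 in that between 12 months and 1 month. The share of all genes called with the block is not given here, so these counts cannot be read against it. Dkk1 and Wif1 at E14.5 were lower in HET mice in all 6 numbered pairs (exact sign-flip p = 0.0312, the smallest that 6 pairs can give). The sign-flip test of pairs gave an exact p of 0.0625 for Apc at 1 and 6 months and Wnt7a at 6 months.

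The values hold no counts, so no counting error per gene can be given. The SE of a genotype difference of a member ran from 0.033 to 0.41, and the highest was that of Sfrp5 at E14.5. A p above the threshold does not show that a gene was the same in both genotypes.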
